A study of Mus musculus with 12 samples.

Results

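Cells in which transcripts of the mitochondrial genome took at least 10% of all counts numbered 525 of 4346 in peeled mouse esophageal epithelium. They were chosen by summing the counts of each cell barcode over the 2 libraries of a mouse, keeping barcodes with at least 200 detected genes, and taking those with 10% or more of counts on genes named mt-. The other 3821 cells lay below that limit. The mt- counts therefore describe the choice and were not tested. The nuclear genes of the high-mitochondrial cells were compared with those of the other cells of the same mouse, with mt- genes left out of every total.

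The epithelium came from C57BL/6 mice that were young (at most 4 months, 3 mice) or aged (at least 18 months, 3 mice), with no other treatment or allele named. Single cells were captured in droplets by inDrop, which marks the RNA of each cell with a barcode carried by a hydrogel bead. The labels give no sex or exact age for a mouse, and whether a numbered mouse was 1 animal or a pool is not stated. Each library held 172 to 1264 barcodes and 257134 to 1356061 counts. Between 88.1% and 97.8% of barcodes recurred in both libraries of the same mouse, which were counted as 1 sample, whereas any 2 mice shared 0 to 14 barcodes. Per-mouse values follow in the order aged mice 1, 2 and 3, then young mice 1, 2 and 3. The numbers carry no order.

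The mitochondrial genome encodes subunits of the respiratory chain and of the ATP synthase, the RNA of the mitochondrial ribosome and its transfer RNAs, while most mitochondrial proteins are encoded in the nucleus. The esophageal epithelium is stratified: basal keratinocytes with Krt5, Krt14 and Krt15 divide and attach to the basement membrane, suprabasal cells make Krt4 and Krt13, and superficial cells make proteins of the cornified envelope. In single-cell data a high share of mitochondrial transcripts is often read as a sign of damaged cells that lost cytoplasmic RNA, and it also varies with the mitochondrial content of intact cells.

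High-mitochondrial cells were unevenly spread over the mice. They numbered 18 of 178, 419 of 1268 and 24 of 606 cells in the aged mice, and 26 of 1029, 22 of 548 and 16 of 717 in the young mice. The shares were 10.1%, 33.0% and 3.96% in aged and 2.53%, 4.01% and 2.23% in young mice. Aged mouse 2 alone held 419 of the 525 cells, and aged mouse 3 lay below young mouse 2. Aged mice averaged 15.7% ± 15.3 and young mice 2.92% ± 0.956 (SD over 3 mice of each age). The difference of 12.8 percentage points did not exceed the spread over mice (p = 0.2, exact two-sided permutation test, where 0.1 is the smallest that 3 mice against 3 allow). Without aged mouse 2 it was 4.11 points (exact permutation p = 0.4).

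**Figure D1:**
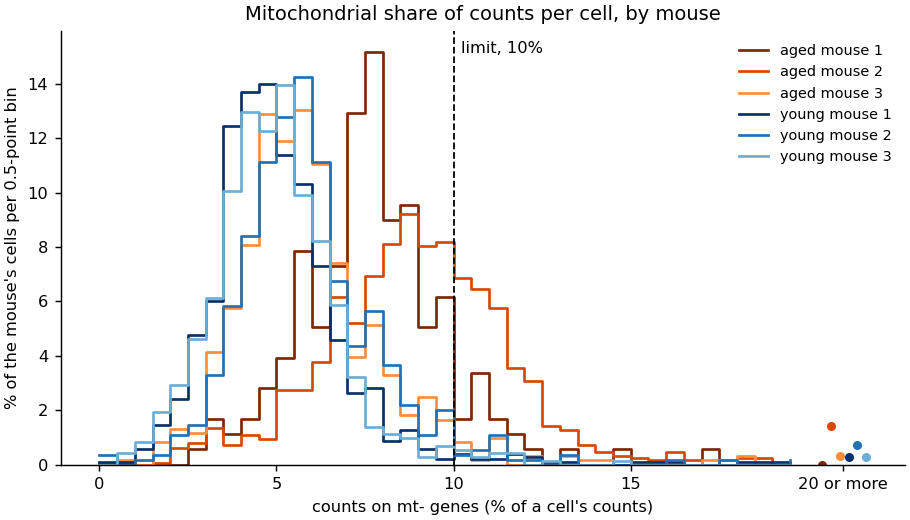
Percent of each mouse's cells (vertical axis) per 0.5-point bin of the share of counts on mt- genes (horizontal axis), with cells at 20% or more as points on the right. The distribution of aged mouse 2 straddles the limit of 10%, that of aged mouse 1 peaks below it, and the other 4 mice reach the limit only in their upper tails.

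The limit cut through a continuous distribution. The median share over all kept cells was 7.64%, 8.97% and 5.70% in the aged and 4.79%, 5.66% and 4.92% in the young mice. Just outside the limit, 283 cells had 9% to 10% of counts on mt- genes, and just inside it 201 cells had 10% to 11%. A further 259 cells had 11% to 15%, 36 had 15% to 20% and 29 had 20% or more. With a limit of 8% the aged minus young difference was 32.0 points, and with 12% it was 3.63 points, each with no overlap between ages (exact permutation p = 0.1). With 15% it was 0.759 points and the ages overlapped (exact permutation p = 0.6). Of the cells at 10% or more in 1 library, 65.2% to 100% were at 10% or more in the other, against 0% to 11.7% of the rest. Whether a molecule could be counted in both libraries of a mouse is not given in the sources used here, so this repeat is not independent support, and summed counts may hold some molecules more than once.

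High-mitochondrial cells had both more mt- counts and fewer nuclear counts than the other cells of their mouse. The median of mt- counts per cell was 261.5, 203, 248.5, 218.5, 237.5 and 243.5, against 207, 139, 136.5, 105, 110 and 109 in the other cells, 1.26 to 2.23 times as many. The median of nuclear counts per cell was 2059, 1553, 1514, 1317.5, 1573.5 and 1567, against 2634.5, 1667, 2194.5, 2036, 1786.5 and 2095. The ratio of these medians was closest to even in aged mouse 2, at 0.932, and lowest in young mouse 1, at 0.647. Since the share is made of both quantities, these differences follow in part from the choice. At an equal depth of 500 nuclear counts the cells showed 353, 362, 347, 350, 343 and 334 genes, against 365, 358, 360, 365, 360 and 360 in the other cells. This count was lower in every mouse except aged mouse 2.

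The mt- counts came from few genes. Of the 21 mt- names, 9 had 41444 to 116161 counts each over all barcodes: mt-Co1, mt-Nd1, mt-Nd2, mt-Nd4, mt-Nd5, mt-Nd6, mt-Cytb, mt-Rnr1 and mt-Rnr2. The mt-Co1 gene, for the catalytic subunit of cytochrome c oxidase, gave 14.3%, 17.0%, 17.2%, 19.7%, 17.4% and 15.1% of the mt- counts of high-mitochondrial cells. The complex I subunit gene mt-Nd4 gave 12.03%, 16.6%, 14.1%, 13.3%, 14.1% and 13.9%, below its share in the other cells of every mouse. The cytochrome b gene mt-Cytb gave 13.5%, 16.3%, 14.6%, 13.1%, 13.2% and 16.1%. The ribosomal RNAs mt-Rnr1 and mt-Rnr2 together gave 38.5%, 17.0%, 29.8%, 28.3%, 31.2% and 27.9%. In the other cells that figure was 29.9%, 16.0%, 26.7%, 24.0%, 25.1% and 26.4%. Ribosomal RNA thus took a larger part of the mt- counts in the high-mitochondrial cells of all 6 mice, and aged mouse 2 was the lowest in both classes. With the mt- protein genes alone at the same limit of 10%, the aged minus young difference in the share of cells was 4.45 points (exact permutation p = 0.2).

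Several protein genes of the mitochondrial genome were almost absent. The files gave 4 counts to mt-Co2, 2 to mt-Atp6, 2 to mt-Co3 and 1 to mt-Nd3 over all barcodes and mice. Each of these genes has an annotated copy in the nuclear genome, on chromosome 1, that matches 99.1% to 99.9% of its length at an identity of at least 99% (GRCm38, GENCODE M21). Reads from such stretches can align to both places. The gene mt-Cytb, with 94435 counts, has only copies below that identity. Close copies did not always go with low counts. The gene with the most counts, mt-Co1 at 116161, has such a copy of its last 483 bases (31.3% of its length), and mt-Nd4, at 103566, of its first 876 bases (63.6%). The last 90 bases of these copies are shown beside the mitochondrial genes, with capitals marking bases at which a pair differs, because they show how closely the pairs match.
mt-Co2, chrM:7604-7693, plus strand: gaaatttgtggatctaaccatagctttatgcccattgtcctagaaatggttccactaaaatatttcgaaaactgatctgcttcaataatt
Gm28661, chr1:24614885-24614974, minus strand: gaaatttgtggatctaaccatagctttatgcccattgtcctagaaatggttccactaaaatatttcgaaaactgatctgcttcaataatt
mt-Co3, chrM:9300-9389, plus strand: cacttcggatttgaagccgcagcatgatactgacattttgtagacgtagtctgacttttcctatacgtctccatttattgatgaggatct
Gm28437, chr1:24613189-24613278, minus strand: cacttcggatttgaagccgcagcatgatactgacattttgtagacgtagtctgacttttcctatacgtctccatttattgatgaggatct
mt-Cytb, chrM:15198-15287, plus strand: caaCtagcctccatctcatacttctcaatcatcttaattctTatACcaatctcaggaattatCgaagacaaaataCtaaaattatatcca
Gm11410, chr4:80005042-80005131, plus strand: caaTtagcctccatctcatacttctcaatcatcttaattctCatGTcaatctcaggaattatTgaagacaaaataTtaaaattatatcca
The 90-base stretch of mt-Co2 and that of mt-Co3 differ from their copies at 0 bases, and that of mt-Cytb at 6. How reads that align to more than 1 place were handled upstream is not given in the sources used here, and its part in the low counts was not tested. The share that defined the cells is thus a share of counts on the mt- genes that were counted. Of the 21 annotated nuclear copies of mitochondrial genes, 4 had enough counts to be tested between the classes, and edgeR called 0 of them (2 had an unadjusted p under 0.05). DESeq2 called 1 of them, Gm13341, a copy of mt-Co2 on chromosome 2 (log2 change 1.57, SE 0.48, edgeR adjusted p = 0.170; DESeq2 adjusted p = 0.0168).

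Superficial and suprabasal genes were lower in high-mitochondrial cells than in the other cells of the same mouse. On counts summed per mouse and class, edgeR's quasi-likelihood test with the mouse as a block covered 8619 nuclear genes. At a Benjamini-Hochberg adjusted p of 0.05, 147 genes were lower (1.71% of those tested) and 1 was higher (0.0116%). The scaling mattered for this split. With TMM factors the median log2 change of all tested genes was −0.26, so changes are given relative to that median, while each p and SE belong to the unshifted change. With DESeq2's size factors in edgeR the split was 65 lower and 10 higher, and with total nuclear counts 58 lower and 12 higher. Lower under all 3 scalings were 58 genes (0.673%). Leaving out aged mouse 2 gave 83 lower and 2 higher of 6163 tested genes, and leaving out any 1 of aged mouse 3 and the young mice gave 72 to 97 calls in all.

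Of 10 tested superficial markers, 7 fell, all 7 under the 3 scalings and 3 by DESeq2, with a median log2 change of −2.15 against 0 for all genes by construction. Sprr3, a small proline-rich precursor of the cornified envelope, stood at 26.6, 362, 368, 1236, 59.8 and 151 CPM, that is, scaled to 1000000 nuclear counts of the mouse and class. In the other cells it stood at 89.6, 2601, 1563, 2298, 288 and 2488. It was lower in all 6 mice, although the 2 classes overlapped between mice. Its log2 change was −2.29 (SE 0.23, edgeR adjusted p = 6.84e-25). Crct1, a cysteine-rich protein gene of late differentiation, fell by 2.09 on the log2 scale (SE 0.32, edgeR adjusted p = 1.67e-10). The antiprotease gene Slpi fell by 2.22 (SE 0.32), and the cornifelin gene Cnfn by 1.15 (SE 0.20), or by 0.74 without aged mouse 2. Slpi, Crct1 and Cnfn were each higher, not lower, in aged mouse 1, at 106 against 41.5, 213 against 37.1 and 399 against 284 CPM. None of them passed with DESeq2 (DESeq2 adjusted p = 0.172, 0.403 and 0.211).

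Of 10 suprabasal markers, 8 fell, 6 of them under all 3 scalings and 4 by DESeq2, with a median log2 change of −0.62. Krt4, an intermediate filament keratin of suprabasal cells, stood at 14365, 21395, 16863, 22706, 10586 and 13556 CPM. In the other cells it stood at 15144, 43499, 28819, 35365, 17335 and 31330. It was lower in all 6 mice, by little in aged mouse 1 and, as a ratio, by most in young mouse 3, with a log2 change of −0.82 (SE 0.12, edgeR adjusted p = 2.39e-17). Its partner keratin Krt13 stood at 11625, 9051, 8861, 10478, 5921 and 11026 CPM against 12520, 15742, 13273, 13503, 9071 and 17108. Its change was −0.60 (SE 0.12). Krtdap, a secreted keratinocyte protein gene, fell by 0.56 (SE 0.14), or by 0.32 without aged mouse 2, and was lower by a wide margin only in aged mouse 2 and young mouse 3, at 4664 against 10448 and 2530 against 7733 CPM. It did not pass with DESeq2 (DESeq2 adjusted p = 0.481).

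**Figure D2:**
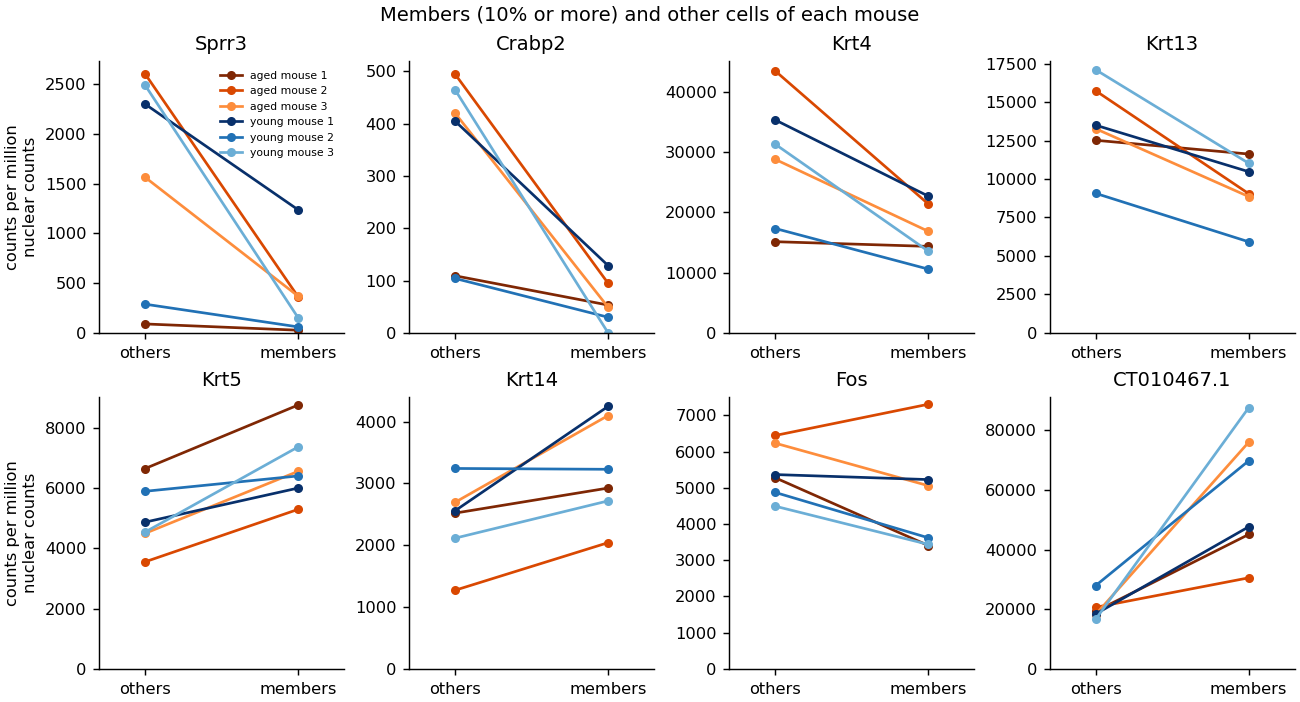
Nuclear CPM (vertical axes, from 0) of 8 genes in the other cells and in the high-mitochondrial cells of each mouse, with 1 line per mouse. Sprr3, Crabp2, Krt4 and Krt13 go down and CT010467.1 and Krt5 go up in all 6 mice, Krt14 goes up in 5, and Fos goes down in 5 and up in aged mouse 2.

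The genes with the largest falls that were lower in every mouse included other genes of keratinocyte differentiation. Crabp2, a cellular retinoic acid binding protein, stood at 53.2, 94.9, 49.1, 129, 29.9 and 0 CPM. In the other cells it stood at 109, 495, 420, 405, 104 and 465, and its log2 change was −2.36 (SE 0.34, edgeR adjusted p = 2.66e-11). Pooled over mice, with most high-mitochondrial cells from aged mouse 2, it had a count in 6.86% of the high-mitochondrial cells and 17.2% of the others. Asprv1, a skin aspartic protease gene, changed by −2.25 (SE 0.29), Sprr1b by −2.39 (SE 0.54) and Hopx, a homeodomain-only protein gene, by −2.13 (SE 0.44). For Sprr1b and Hopx, being lower in every mouse rested on few counts. Sprr1b had 0, 6, 0, 6, 0 and 0 counts in the high-mitochondrial cells, and Hopx had 0, 32, 2, 3, 1 and 1. In young mouse 2 Hopx stood at 29.9 against 31.6 CPM. Hopx missed the threshold without aged mouse 2 (edgeR adjusted p = 0.0586). The acid sphingomyelinase gene Smpd1, Bicdl2, the connexin gene Gjb6 and Ceacam19 were also called, but had 0 counts in the high-mitochondrial cells outside aged mouse 2 and were kept for testing through the other cells, where they were high. Their counts were 8, 11, 5 and 1, where 54.0, 55.5, 40.8 and 20.9 were expected at the other cells' level. Without aged mouse 2 only 6.90, 9.25, 3.89 and 3.25 were expected, Smpd1 missed the threshold (edgeR adjusted p = 0.137), Bicdl2 passed (0.0475), and Gjb6 and Ceacam19 could not be tested. Gjb6 and Ceacam19 did not pass with either other scaling. Il1f8, an interleukin-1 family gene, had 0 counts in the high-mitochondrial cells, where 20.92 were expected at the other cells' level, and it too was kept for testing through the other cells. Against a floor of 3 counts over all mice it was at least 6.97-fold lower. Without aged mouse 2, 4.05 counts were expected, the bound was 1.35-fold, and the call was lost (edgeR adjusted p = 0.366).

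Fn1 and Dpt, matrix genes made by fibroblasts, also had 0 counts, where 8.78 and 7.98 were expected, at least 2.93-fold and 2.66-fold lower. Without aged mouse 2 each bound was 2.01-fold. The bounds treat counts as independent, although only 29 and 30 of the other cells had a count on these genes. Both genes were kept for testing through the other cells. Their calls were lost with both other scalings and on leaving out any 1 mouse (edgeR adjusted p from 0.0717 to 0.210). Of 7 fibroblast markers, 5 were tested and 0 passed (edgeR adjusted p; 3 had an unadjusted p under 0.05), and Col1a1, Lum and Pdgfra had 0 counts. Pooled over mice, cells with counts on at least 2 fibroblast markers made up 1 of 525 high-mitochondrial and 32 of 3821 other cells. The corresponding numbers were 1 and 14 for immune markers and 1 and 0 for endothelial markers. In aged mouse 2, 0 of 419 high-mitochondrial and 1 of 849 other cells had 2 fibroblast markers, and 0 and 1 had 2 immune markers. Since that mouse held most high-mitochondrial cells, the pooled numbers do not compare the classes within a mouse. The immune markers Ptprc, Cd52, Tyrobp and Fcer1g had 0 counts in high-mitochondrial cells, as did all markers found in the files for striated muscle and erythroid cells. With cells carrying 2 or more non-epithelial markers left out, 136 genes were lower and 3 higher.

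Basal markers lay above the median of all genes in high-mitochondrial cells, but none of the 12 passed with TMM (0 with an unadjusted p under 0.05). Their median log2 change was 0.28. With total nuclear counts as the scaling, 12 of 8619 genes rose (0.139%), and 3 of the 12 basal markers were among them. These were Krt5, Krt14 and the hemidesmosomal collagen gene Col17a1. The same 3 rose with DESeq2's size factors in edgeR, and DESeq2 called Krt5 and Col17a1. With TMM, no basal marker rose against other cells matched on nuclear counts (0 of 11) or without aged mouse 2 (0 of 12). Krt5 and Krt14 were chosen for naming after their values were seen. Krt5 stood at 8752, 5292, 6554, 5998, 6400 and 7363 CPM against 6645, 3552, 4496, 4867, 5891 and 4539, higher in all 6 mice. Its log2 change was 0.36 with TMM (SE 0.14, edgeR adjusted p = 0.904) and 0.42 with total counts (SE 0.11, edgeR adjusted p = 0.00704). Krt14 stood at 2926, 2043, 4099, 4248, 3230 and 2719 CPM against 2521, 1273, 2695, 2558, 3243 and 2115. Col17a1 stood at 984, 880, 712, 1159, 1286 and 1322 CPM against 747, 506, 621, 620, 755 and 632, higher in all 6 mice. Its edgeR adjusted p was 0.522 with TMM and 0.00421 with total counts, and its DESeq2 adjusted p was 0.00609. Cells with more Krt5, Krt14 and Krt15 than Krt4 and Krt13 counts made up 66.7%, 47.3%, 58.3%, 61.5%, 68.2% and 68.8% of high-mitochondrial cells. They made up 61.9%, 34.6%, 48.8%, 44.6%, 59.5% and 44.5% of the others.

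The markers of the upper layers also varied with the mitochondrial share below the limit. In the 5 mice other than aged mouse 2, superficial markers took 1.13% of nuclear counts in cells below 5% mt- counts, 0.306% at 5% to 9% and 0.273% at 9% to 10%. Inside the limit they took 0.157% at 10% to 11% and 0.295% at 11% to 15%. In aged mouse 2 the values were 3.97%, 0.629%, 0.326%, 0.352% and 0.185%. Suprabasal markers fell from 7.30% to 3.94% between the 2 lowest bins in the 5 mice, and from 15.2% to 7.12% in aged mouse 2. Both lists were lower at 5% to 9% than below 5% in each of the 6 mice. Above 9% the bins of single mice other than aged mouse 2 held at most 25 cells and took no 1 direction. In aged mouse 3, suprabasal markers took 5.71% at 9% to 10%, 1.66% at 10% to 11% and 4.65% at 11% to 15%. At the highest shares suprabasal markers went up again in aged mouse 2, from 3.45% at 11% to 15% to 5.21% at 15% to 20% and 7.55% at 20% or more. In the 5 mice they took 4.23%, 4.82% and 4.12% in these bins, the last 2 holding 14 and 11 cells. At 20% or more, single mice ranged from 0.972% in young mouse 2 to 8.22% in young mouse 1. Superficial markers took 0.470% at 20% or more in the 5 mice and 0.567% in aged mouse 2, in 29 cells in all.

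**Figure D3:**
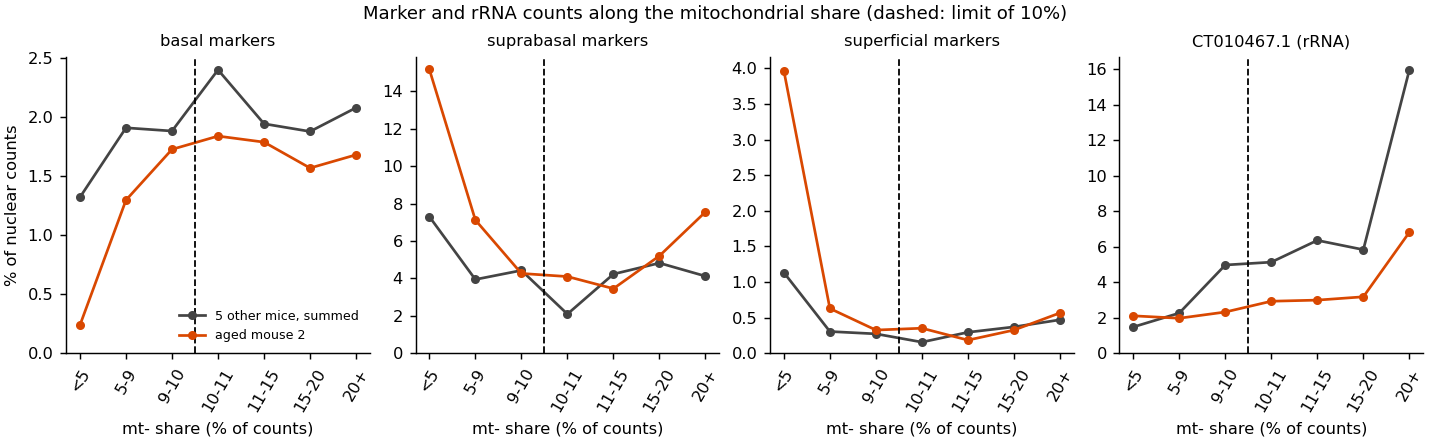
Percent of nuclear counts (vertical axes, from 0) on basal, suprabasal and superficial markers and on CT010467.1, by bin of the mt- share of a cell (horizontal axis), summed over 5 mice (grey) and in aged mouse 2 (orange). In these sums suprabasal and superficial markers drop most between the 2 lowest bins, and CT010467.1 goes up to 16.0% of nuclear counts in the 11 cells of the 5 mice at 20% or more.

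The falls depended on which other cells were compared. With other cells matched 1 to 1 on nuclear counts, 1165 genes could be tested and 0 were lower (0%; edgeR; 58 had an unadjusted p under 0.05). There Krt4 changed by 0.01, Krt13 by 0.13, Krtdap by 0.39 and Sprr3 by −1.22. This fit holds fewer cells and tests fewer genes. Among cells with more Krt5, Krt14 and Krt15 than Krt4 and Krt13 counts, 31 of 7185 genes were lower (0.431%), and none of 6 superficial and 8 suprabasal markers tested was among them (0 and 3 with an unadjusted p under 0.05). The 8 include Krt4 and Krt13, whose changes there are limited by the choice of these cells and are not read. Slpi changed by 1.75 (SE 0.89, edgeR adjusted p = 0.674) and Krtdap by 1.19 (SE 0.34, edgeR adjusted p = 0.422). Among cells led by Krt4 and Krt13, in the 3 mice with enough of them, Sprr3 fell by 1.80 (SE 0.35, edgeR adjusted p = 1.12e-05), Slpi by 2.32 and Crct1 by 2.43.

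**Figure D4:**
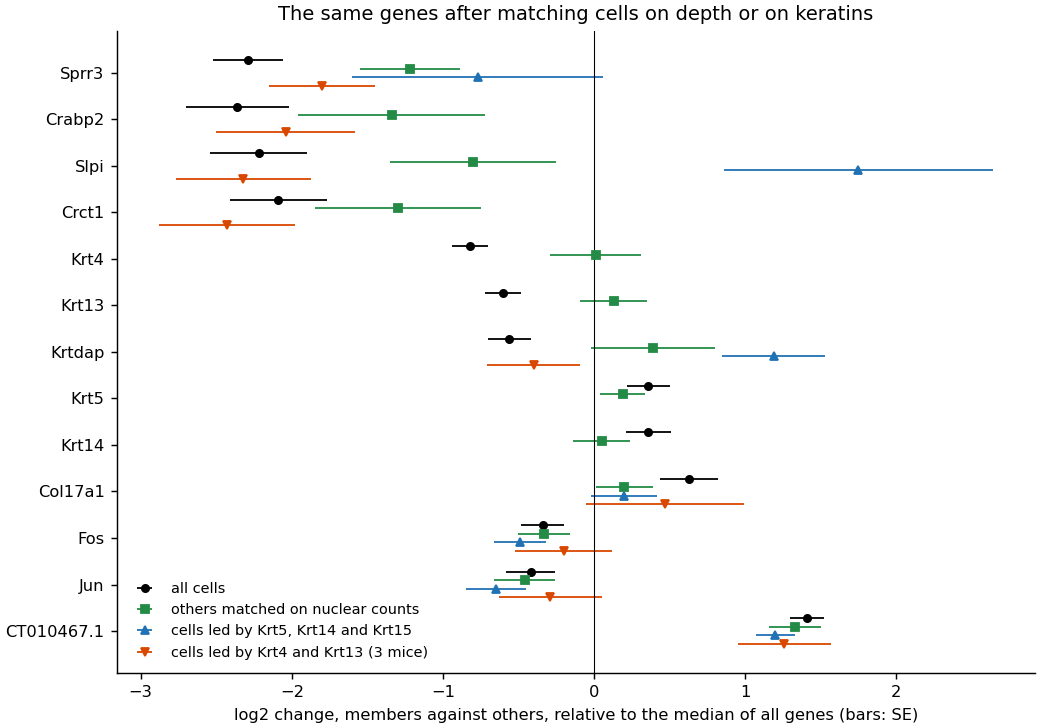
Log2 change of 13 genes between high-mitochondrial and other cells, relative to the median of all genes (horizontal axis, bars are SE), in all cells, with other cells matched on nuclear counts, and within cells led by basal or by suprabasal keratins. The 4 keratins that define the classes are not drawn within them. Krt4 and Krt13 lie at 0.01 and 0.13 when matched, whereas CT010467.1 stays between 1.20 and 1.41 throughout.

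A nuclear gene of ribosomal RNA type was the 1 gene that rose with TMM, and it kept its call with both other scalings and with depth matching. CT010467.1 lies on the minus strand of chr17:39846353-39848827 (GRCm38, GENCODE M21, type rRNA) and overlaps the RefSeq pseudogene Rn18s-rs5 of the 18S ribosomal RNA. It stood at 45063, 30530, 75968, 47626, 69739 and 87528 CPM in high-mitochondrial cells. In the other cells it stood at 19294, 20659, 18215, 18394, 27903 and 16604. The classes did not overlap over the 6 mice, and aged mouse 2 showed the smallest difference. The log2 change was 1.41 (SE 0.11, edgeR adjusted p = 8.88e-22), 1.33 with other cells matched on nuclear counts (edgeR adjusted p = 2.29e-04) and 1.68 without aged mouse 2.

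The rise of CT010467.1 was spread over cells. Its median share of a cell's nuclear counts was 3.47%, 2.77%, 6.35%, 2.93%, 6.52% and 9.21% in high-mitochondrial cells, against 1.68%, 1.96%, 1.52%, 1.35%, 1.96% and 1.32%. Along the mt- share it took 1.48% of nuclear counts below 5%, 2.27% at 5% to 9%, 4.97% at 9% to 10% and 5.13% at 10% to 11% in the 5 mice other than aged mouse 2. At 20% or more it took 16.0% in those 5 mice and 6.82% in aged mouse 2. Ribosomal RNA lacks a poly(A) tail, and counts here can come from any copy of the ribosomal DNA, since near-identical copies share reads. Among genes chosen after their values were seen, Gm26917, which neighbours it on chromosome 17, was higher in 4 mice, with a change of 1.15 (SE 0.36, edgeR adjusted p = 0.270 with TMM and 0.0447 with total counts). Mir6236, on chromosome 9, was higher in 5 mice, with a change of 0.70 (SE 0.21, edgeR adjusted p = 0.420 with TMM and 0.00432 with total counts; DESeq2 adjusted p = 0.0285). Against other cells below 5% only, both passed with TMM (edgeR adjusted p = 0.0377 and 1.8e-05).

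The 29 cells at 20% or more had the poorest nuclear content, in part by construction, since the share depends on nuclear counts. Their median was 707 nuclear counts and 362 genes, against 1635 counts and 859 genes in the 201 cells of 10% to 11%. The long RNAs Malat1, Neat1 and Kcnq1ot1, which stay in the nucleus, took 0.237% of their nuclear counts (54 of 22834 counts), against 0.0783% at 10% to 11% and 0.0401% below 5%. Of the 54 counts, 40 came from aged mouse 2. Without it the value was 0.143% (14 of 9780 counts), against 0.0861% at 10% to 11%, and young mouse 1 had none. Cytosolic ribosomal protein genes took 4.32% against 7.68% and 6.10%. These cells were 0, 18, 2, 3, 4 and 2 in number per mouse. Over all high-mitochondrial cells, 0 of the 3 nuclear long RNAs passed with TMM (edgeR; 1 with an unadjusted p under 0.05), with a median log2 change of 0.57. Neat1 stood at 79.8, 163, 123, 155, 120 and 642 CPM against 107, 80.9, 93.4, 53.7, 120 and 106. It was higher in 4 mice and did not pass (log2 change 0.97, SE 0.34, edgeR adjusted p = 0.443). Against other cells below 5% only, Neat1 and Malat1 passed with TMM (edgeR adjusted p = 0.0219 and 0.0352) and Kcnq1ot1 did not (0.192). With other cells matched on nuclear counts, Neat1 changed by 0.44 (SE 0.43, edgeR adjusted p = 0.969).

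Immediate early genes, which respond within minutes to stress such as tissue dissociation, were lower with TMM only. Of the 19 immediate early and heat shock genes, 9 fell with TMM, 0 under all 3 scalings, with a median log2 change of −0.38. Fos, an AP-1 transcription factor gene, stood at 3405, 7305, 5056, 5226, 3619 and 3436 CPM against 5275, 6443, 6230, 5364, 4870 and 4491. It was lower in 5 mice and higher in aged mouse 2. Its change was −0.34 with TMM (SE 0.14, edgeR adjusted p = 0.00266) and −0.28 with total counts (edgeR adjusted p = 0.519). The TMM call was lost without aged mouse 3 (edgeR adjusted p = 0.0898) or young mouse 2 (0.0586). Its partner Jun changed by −0.42, Junb by −0.49 and the nuclear receptor gene Nr4a1 by −0.62 with TMM, each lower in the 5 mice and higher in aged mouse 2. Jun was lost without the same mice (0.0880 and 0.112), Junb without young mouse 2 (0.152), and Nr4a1 without aged mouse 3 (0.209), young mouse 1 (0.116) or young mouse 2 (0.0895; edgeR adjusted p). Within cells led by Krt5, Krt14 and Krt15, 10 of these 19 genes were lower with TMM, and other scalings were not run there.

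Nuclear genes for mitochondrial proteins gave no call. None of 35 tested nuclear subunits of complex I, 4 of complex II, 12 of complex IV and 17 of complex V passed in either direction (edgeR; 1, 1, 1 and 2 had an unadjusted p under 0.05). DESeq2 also called 0 genes in these lists and in those of the next paragraph. Their medians were −0.09, −0.07, 0.00 and −0.20. Of the 9 complex III subunits on the list, only Cyc1, the cytochrome c1 gene, was analysed here, with a change of −0.25 (SE 0.24). Atp5b, the catalytic beta subunit of the ATP synthase, stood at 904, 631, 516, 592, 568 and 491 CPM against 869, 573, 726, 699, 823 and 759, with the classes overlapping. Cox8a, a small subunit of cytochrome c oxidase, stood at 1197, 1937, 1325, 1364, 1495 and 1510 CPM against 1398, 1596, 1406, 1363, 1494 and 1539. Its log2 change was −0.07 (SE 0.17).

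The genes that copy, transcribe and process mitochondrial DNA and RNA did not pass either, with 0 of 18 called (0 with an unadjusted p under 0.05) and a median change of 0.22. Mitochondrial ribosomal proteins gave 0 of 71 (3 unadjusted) with a median of −0.16, and took a smaller part of nuclear counts in 5 of 6 mice. Complex IV subunits took a larger part in 5 mice, and regulators of mitochondrial biogenesis in all 6 (0.0287% against 0.0238%). These parts were not tested, and the margin was small in several mice. Complex IV subunits took 0.6759% against 0.6739% in young mouse 2. The biogenesis regulators took 0.02574% against 0.02528% in young mouse 1 and 0.02209% against 0.02109% in aged mouse 3. These regulators gave 0 of 5 (0 unadjusted), fission and fusion genes 0 of 9 (0), mitophagy genes 0 of 10 (2) and import factors, chaperones and proteases 0 of 19 (1). Gabarap, an autophagosome protein gene, had the lowest p of the mitophagy list, with a change of −0.46 (SE 0.23, edgeR adjusted p = 0.0878). The integrated stress response, through which mitochondrial faults can raise Atf4 targets, gave 0 of 8 (1). Asns, asparagine synthetase, had a change of −0.69 (SE 0.46), and Atf4 itself −0.09 (SE 0.31).

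**Figure D5:**
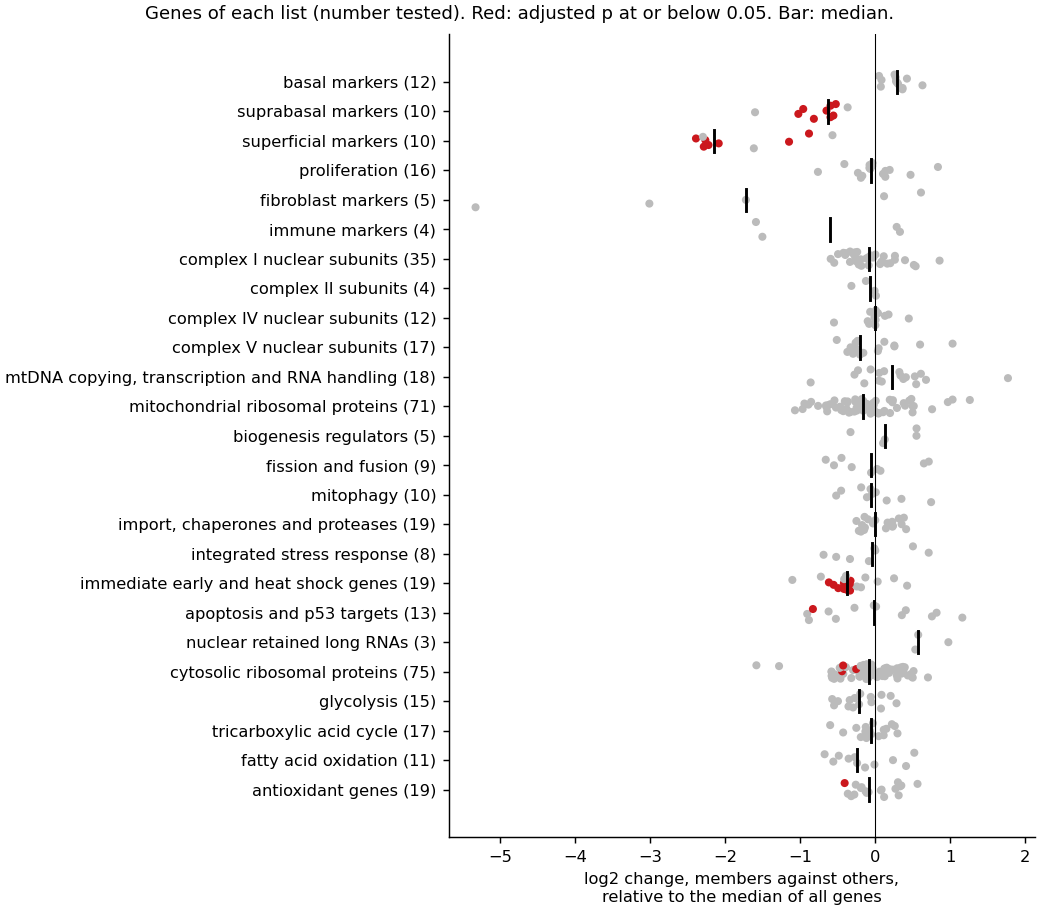
Log2 change of each tested gene between high-mitochondrial and other cells, relative to the median of all genes (horizontal axis), by list, with the median as a bar and genes passing with TMM in red. Superficial markers centre on −2.15 and suprabasal markers on −0.62, while the nuclear subunits of complexes I, II, IV and V centre between −0.20 and 0.00.

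Among the remaining lists, 1 of 13 apoptosis and p53 genes fell. This was Cdkn1a, the p21 inhibitor of cyclin-dependent kinases, at 479, 440, 466, 463, 658 and 302 CPM against 638, 980, 777, 940, 614 and 808. It was lower in 5 mice and higher in young mouse 2, with a change of −0.83 (SE 0.21, edgeR adjusted p = 5.5e-05) that passed under all 3 scalings. With other cells matched on nuclear counts its change was −0.07 (SE 0.37, edgeR adjusted p = 0.997). Within cells led by basal keratins it was −0.37 (SE 0.46, edgeR adjusted p = 0.636), and by suprabasal keratins −0.90 (SE 0.37, edgeR adjusted p = 0.232). Of 75 cytosolic ribosomal protein genes, 3 fell with TMM (Rpl8, Rps7 and Rps19) and 0 under all 3 scalings. Without aged mouse 3 none of these 3 passed (edgeR adjusted p = 0.0856, 0.207 and 0.460). Rps7 was also lost without young mouse 3, and Rps19 without any 1 young mouse. Of 19 antioxidant genes, 1 fell with TMM only, Nfe2l2, the transcription factor gene of the oxidative stress response (change −0.41, SE 0.20). It passed again only without aged mouse 2 (edgeR adjusted p = 0.0106), and not on leaving out any other mouse (0.0582 to 0.460). None of 16 proliferation genes passed (1 unadjusted), and Mki67 stood at 79.8, 151, 344, 25.7, 150 and 415 CPM against 249, 193, 194, 193, 159 and 184. Glycolysis gave 0 of 15 (4 unadjusted), the tricarboxylic acid cycle 0 of 17 (1) and fatty acid oxidation 0 of 11 (2). The 4 tested immune markers gave 0 (0).

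No gene differed with age among high-mitochondrial cells by the test used. Counts summed over these cells ranged from 26483 to 663813 nuclear counts per mouse, and 626 genes could be tested between 3 aged and 3 young mice. None passed (0% of those tested; 31 had an unadjusted p under 0.05; DESeq2 called 0). In counts simulated at these depths, the test recovered 40% of 100 genes changed by 1 on the log2 scale and 95% of 100 changed by 2. The simulation changed a large part of the 626 genes and gave all genes the same dispersion. It held no other differences between mice than depth, so recovery in the real counts can be lower. The lowest p belonged to H19, an imprinted long RNA gene, at 638, 673 and 859 CPM in aged and 1107, 2153 and 2832 in young mice. The ages did not overlap, and the log2 change was −1.49 (SE 0.37, edgeR adjusted p = 0.349). Without young mouse 1, whose value was the lowest of the young, H19 passed (log2 change −1.81, SE 0.38, edgeR adjusted p = 0.0102). It also passed with a limit of 8%, at −1.69 (SE 0.26, edgeR adjusted p = 0.00175). In the other cells the H19 means were 507 in aged and 1550 CPM in young mice, so its difference was not confined to high-mitochondrial cells. Banf1, a DNA-binding protein gene of the nuclear envelope, stood at 239, 368 and 295 CPM in aged and 695, 658 and 642 in young mice (log2 change −1.08, SE 0.36, edgeR adjusted p = 0.911). Cbfb, a partner of the Runx factors, had a change of −1.40 (SE 0.46).

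Whether the difference between the classes itself changed with age was tested as an interaction over the same 8619 genes. None passed (0%; 231 had an unadjusted p under 0.05; DESeq2 called 0). The 3 genes of lowest p, Alms1, Slc22a23 and Tex261, rested on few counts. Slc22a23, a solute carrier gene, had 4, 33 and 5 counts in the high-mitochondrial cells of the aged mice and 0 in each young mouse. Alms1, the Alström syndrome gene, had 2, 0 and 2 counts in those of the young mice and 0 in each aged mouse, and Tex261 had 6, 77 and 2 counts in those of the aged mice, against 0, 0 and 1 in those of the young mice. In counts simulated for this test it recovered 0% of 100 genes changed by 1 on the log2 scale and 9% of 100 changed by 2.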

How the data were processed

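Per the submitters' processing notes, the authors used UMI-tools 1.0.0, STAR 2.7, Subread 2.0.0 with featureCounts and Seurat on GRCm38. The roles of these tools, the annotation, the strand setting and the barcode filter are not given in the sources used here. The authors deposited unnormalized counts, in whole numbers, of each gene symbol in each barcode. The labels' extraction protocol describes inDrop and closes by naming Smart-Seq2; inDrop was taken as the method.

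Counts were summed per barcode over the 2 libraries of a mouse, since most barcodes recur in both, and the mouse was the replicate. Cells needed 200 detected genes. Scrublet in scanpy 1.11.5 called 0 to 14 barcodes per library, which were kept and left out as an alternative. Nuclear counts were summed per mouse and class where a class had at least 10 cells. The test was the quasi-likelihood one of edgeR 4.0.16 under R 4.3.3 (TMM, filterByExpr, two-sided) with the mouse as a block, because both classes came from the same animal, and Benjamini-Hochberg adjustment at 0.05 over all tested genes. A standard error is the size of the fitted log2 change divided by the square root of the F statistic. It and the p refer to the fitted change, whereas the changes printed for the comparison of classes are relative to the median of all tested genes. DESeq2 1.42.0 was an alternative. CPM is the count per 1000000 nuclear counts. Shares of cells were compared by an exact permutation test over mice (scipy 1.17.1). The mt- transcripts were aligned to the other GENCODE transcripts with blastn 2.17.0.

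The members and the 31 gene lists were chosen with earlier results of these data known. Genes are named by a rule: the 12 largest called changes in each direction that were alike in every mouse (Gm and Rik models and ribosomal pseudogenes left out), up to 4 genes of lowest p per list, the markers of other cell types at 0, and the 3 of lowest p for age and for the interaction. Others are said to have been chosen after their values were seen, as were Krt5 and Krt14. The tests were run on simulated counts: the comparison of classes recovered 10% of 100 genes changed by 1 on the log2 scale and 72% of 100 changed by 2, among 8619 genes. All simulated counts used the same dispersion for every gene and no differences between mice other than depth and age, so recovery in real counts can be lower. The permutation p-values measure the spread between mice. The p-values and standard errors of edgeR use a spread estimated with the help of all tested genes. They can therefore be smaller than the mice of 1 gene alone would give. The values also differed with the scaling and the program, and the part of each was not tested. Krtdap had an edgeR adjusted p of 1.05e-06 with TMM, 3.99e-04 with DESeq2's size factors and 0.00149 with total nuclear counts. Its DESeq2 adjusted p was 0.481. The SE of CT010467.1 was 0.11 with edgeR and 0.22 with DESeq2. Intervals and floors cover counting error only.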

Additional observations from a re-analysis of the deposited data

Results flagged for a closer look

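Among 32 quantities compared over the 6 mice, 2 had a mouse far from the others, and chance alone flags about 1 in 20. The nuclear genes for import, chaperones and proteases had a log2 ratio of high-mitochondrial to other cells of −0.76 in young mouse 3, against −0.08 to 0.25 in the other 5 mice. That mouse had 16 high-mitochondrial cells. The median of nuclear counts in high-mitochondrial cells was 2059 in aged mouse 1, against 1317.5 to 1573.5 in the other mice.

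The integrated stress response genes took a larger part of nuclear counts in the high-mitochondrial cells of all 3 aged mice and a smaller part in those of all 3 young mice. In the order of the mice, the parts were 0.0984%, 0.1122%, 0.1645%, 0.1004%, 0.0957% and 0.0982%. In the other cells they were 0.0963%, 0.0985%, 0.1055%, 0.1264%, 0.1058% and 0.1042%, so the margin in aged mouse 1 was small. A full split of 3 mice against 3 arises by chance with a probability of 0.1 for each quantity looked at. The log2 ratios differed by 0.47, with means of 0.29 in aged and −0.19 in young mice. This difference over the list was not tested, and 0 single genes passed the interaction of age with class.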

How the results depend on the processing

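The count of 148 nuclear genes differing between the classes stayed within 1.5 times without a filter on low counts (190), with members of 10% to 20% only (127), with at least 500 genes (172), without doublet calls (147), without non-epithelial cells (139), without nuclear copies (148), and with members chosen on library 1 and counted in library 2 (109). It was 46 with DESeq2, 75 with DESeq2 size factors in edgeR, 70 with total nuclear counts, 287 with a limit of 8%, 288 against other cells below 5% only, 1 with other cells matched on nuclear counts, 33 and 15 within cells led by basal or suprabasal keratins, and 69 with the top 5% of each mouse. Without the mouse as a replicate block, it was 39 of 6751 tested genes. Leaving out 1 mouse gave 72 to 137. For most of these the cause was not tested, while matching and the keratin classes hold fewer cells and test fewer genes. The top 5% and the omission of nuclear copies were chosen after seeing the data. A limit of 15% was not run for genes, since 1 mouse had enough cells.

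Matched on nuclear counts, the relative log2 change had the other sign for Krt4 (0.01), Krt13 (0.13), Krtdap (0.39) and Mt4 (0.37). Within basal-keratin cells this held for Krt4 (0.14), Krtdap (1.19), Mt4 (0.90), Slpi (1.75), Cnfn (0.42) and, called, Krt15 (−0.27), of which Krt4 and Krt15 define these cells, and without a filter for Rplp1 (0.01). CT010467.1 kept its direction in all 23 alternatives and its call in 22, the exception being the 3 mice with enough suprabasal-keratin cells (adjusted p = 0.279, edgeR).

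The aged minus young difference in the share of cells was 32.0, 3.63 and 0.759 points with limits of 8%, 12% and 15%, 4.45 with mt- protein genes only, 12.3 with at least 500 genes, 12.75 with the first library, 12.9 without doublet calls, and 4.11 to 18.65 with 1 mouse left out. The age comparison within members called 0 genes, also with a replicate block by mouse number (numbers that name animals and pair nothing). It called 3 with a limit of 8% (Atf3 higher, Fst and H19 lower in aged mice), 1 with the top 5% and 0 to 1 with 1 mouse left out, the 1 being H19 in both cases, in the latter without young mouse 1. These names were chosen after their values were seen. The interaction called 0 under every alternative run. Few cells in 5 of the 6 mice limit all comparisons.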

Other observations

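Krt1 and Krt10, keratins of cornifying skin, were looked at after their values were seen. Krt1 had 26 counts in the 26 high-mitochondrial cells of young mouse 1 (669 CPM against 86.2 in its other cells), 107 in aged mouse 2 (161 against 60.9), 3 in aged mouse 3 and 0 in the other 3 mice. Pooled over mice, it had a count in 5.14% of high-mitochondrial and 2.04% of other cells. Its log2 change was 1.66 (SE 0.48, edgeR adjusted p = 0.132 with TMM and 0.0322 with total counts). Krt10 stood at 927 against 107 CPM in young mouse 1 and at 166 against 111 in aged mouse 2.

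Igfbp5, a secreted binding protein gene for insulin-like growth factors, was higher in 5 mice and lower in aged mouse 2, at 372, 75.3, 565, 489, 987 and 227 CPM against 221, 109, 211, 118, 264 and 68.5 (log2 change 1.09, SE 0.27, edgeR adjusted p = 0.0887 with TMM and 0.00155 with total counts; DESeq2 adjusted p = 0.0427). Igfbp5 too was looked at after its values were seen, and it also passed without aged mouse 2 (edgeR adjusted p = 2.95e-04). Fos, Jun, Junb and Nr4a1 were likewise the other way round in aged mouse 2, which held 419 of the 525 high-mitochondrial cells and had the lowest part of mitochondrial ribosomal RNA in both classes.

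Barcodes with fewer than 200 detected genes were left out by the rule. They numbered 1, 4, 5, 3, 26 and 1 in the 6 mice, and all of them had at least 10% of counts on mt- genes.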
